A study of Schizosaccharomyces pombe with 3 samples.

Results

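The genes described here make, mature, export and degrade the mating pheromones of fission yeast, Schizosaccharomyces pombe, or let mating cells stick to each other. They were found by symbol in the probe annotation of the array, from the names map2, map4, sxa1, mfm1, mfm2, mfm3, mam1, mam3, mam4 and sxa2. All 10 were measured, among 2896 fission yeast genes that could be matched to a probe set. Of the 10928 probe sets on the array, 5224 had no gene named in the annotation. Shares, percentiles and medians over all genes below therefore cover the 2896 matched genes only. Of the 10 genes, map2, map4 and sxa1 were taken as genes of plus cells and the other 7 as genes of minus cells. The grouping was not tested here and does not mean that a gene is silent in cells of the other type. Total RNA was measured on 3 Affymetrix expression arrays, 1 per sample, in 1 group. The strain, labelled wild type, was h+ (plus mating type) and carried leu1-32, ade6-210 and also ura4-DS/E. The cells grew at 30 degrees in YEA liquid culture, which is a rich medium. No condition or other mating type was measured beside it, so no gene has a level in minus cells here. Separate cultures are not mentioned in the labels, so SDs and p-values rest on a spread that may be technical.

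Fission yeast cells of the plus (P) and minus (M) types find each other by secreted peptides. Plus cells secrete P-factor, a simple peptide cut from a precursor in the secretory pathway, and minus cells secrete M-factor, a short peptide that carries a farnesyl lipid and a methyl group and leaves the cell through its own transporter. Each type senses the pheromone of the other through a cell-surface receptor. Mating is normally started by nitrogen starvation, which raises the transcription factor Ste11, and together with the proteins encoded at the mating-type locus Ste11 switches on the genes of the cell's own type. Adhesins of the cell surface, called agglutinins, then hold the partners together.

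The value given for each gene is the MAS5 signal, a linear intensity per probe set, and its log2. The median over the 2896 matched fission yeast genes was a signal of 298, 302 and 296 on arrays 1, 2 and 3. Background was read from 2601 probe sets of another yeast on the same arrays, and its limit was the 95th percentile of their signal, which was 1.20, 1.24 and 1.18. Probes of different sequence differ in brightness, and a gap in signal between genes mixes this with transcript level. Signals of different genes are set side by side below only as a description of these arrays. The SD over the arrays on the log2 scale follows each ± (n = 3).

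All 10 genes gave signal above background on all 3 arrays, and 10 of 10 passed the test (limma, adjusted p under 0.05 over all genes). Among all genes tested 99.9% passed it, so this count is near the background. The 10 genes spanned a 98.9-fold range of signal, from mfm2 to sxa1. The pheromone precursor genes map2, mfm1 and mfm2 were the dimmest, while the exporter, the methyltransferase, the agglutinin mam3 and the protease sxa1 lay near or above the signal of the median gene. In the bottom 25% of mean signal were 5 of the 10, namely mfm2, mfm1, map2, sxa2 and map4, where by construction 25% of all genes lie. The boundary was a log2 signal of 7.13, with map4 just under it at 7.05 and mfm3 just over it at 7.33. The median of the 10 was a log2 signal of 7.19, against 8.22 over all genes.

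**Figure D1:**
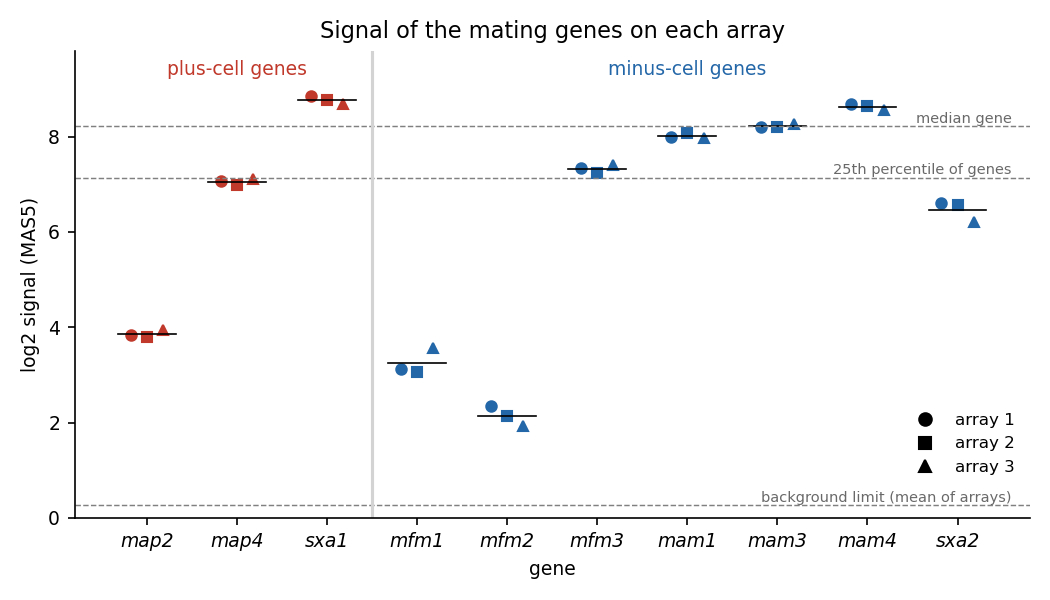
Log2 MAS5 signal (vertical axis) of the 10 genes (horizontal axis) on array 1 (circles), array 2 (squares) and array 3 (triangles), with the mean as a black bar. Red marks plus-cell genes and blue minus-cell genes, and dashed lines give the background limit, the 25th percentile and the median of all genes. The dimmest gene, mfm2 at 2.14, lies well above the background limit on every array.

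P-factor is encoded by map2, whose product is a precursor with several copies of the peptide. Its signal was 14.3, 13.9 and 15.4 on arrays 1, 2 and 3. The arrays gave nearly the same value, at a log2 signal of 3.86 ± 0.08. That was 12.0-fold over the background limit (limma adjusted p = 5.93e-11), yet only 2.97% of genes had a lower mean signal. The plus-cell pheromone gene was therefore the third dimmest of the 10 on arrays of plus cells, above mfm1 and mfm2.

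M-factor is encoded by mfm1, mfm2 and mfm3, which all yield the same peptide in minus cells. Signals of mfm3 were 161, 152 and 169, a log2 signal of 7.33 ± 0.08, and 28.1% of genes lay lower. Signals of mfm1 were 8.75, 8.35 and 11.7, a log2 signal of 3.25 ± 0.27, and 1.69% of genes lay lower. Signals of mfm2 were 5.07, 4.38 and 3.83, a log2 signal of 2.14 ± 0.20, and 0.66% of genes lay lower. The ranges of the M-factor genes over the arrays did not overlap, with mfm3 brighter than mfm1 by 4.08 ± 0.20 and than mfm2 by 5.19 ± 0.25 on the log2 scale. The dimmest of them, mfm2, was still 3.64-fold over the background limit (limma adjusted p = 3.57e-08), and mfm1 was 7.87-fold over it (limma adjusted p = 1.47e-08). As 99.9% of all genes passed this test, passing it does not by itself show that a transcript was present. In a bulk sample, fewer cells of a type and less RNA per cell cannot be told apart. The signal of a minus-cell gene in a culture labelled h+ therefore does not say which cells, if any, held the transcript.

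Both mfm1 and mfm3 were measured by a pair of probe sets, one of which carries the suffix that the array's maker uses for probes that may also match other sequences. For mfm1 the plain probe set gave 7.62, 8.38 and 11.7, and the suffixed one gave 10.04, 8.33 and 11.8. For mfm3 the plain probe set gave 158.8, 153 and 171, and the suffixed one gave 163.6, 150.2 and 167. The suffixed probe set minus the plain one was 0.13 ± 0.23 for mfm1 and -0.01 ± 0.04 for mfm3 on the log2 scale. On average the probe sets of a gene thus differed by less than their spread between arrays. For mfm1, however, the difference on array 1 was 0.40, above that spread, against -0.01 and 0.01 on arrays 2 and 3. Neither probe set of mfm1 came near the signal of mfm3. The probe sequences were not used here, so how far the M-factor genes share probes was not tested.

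**Figure D2:**
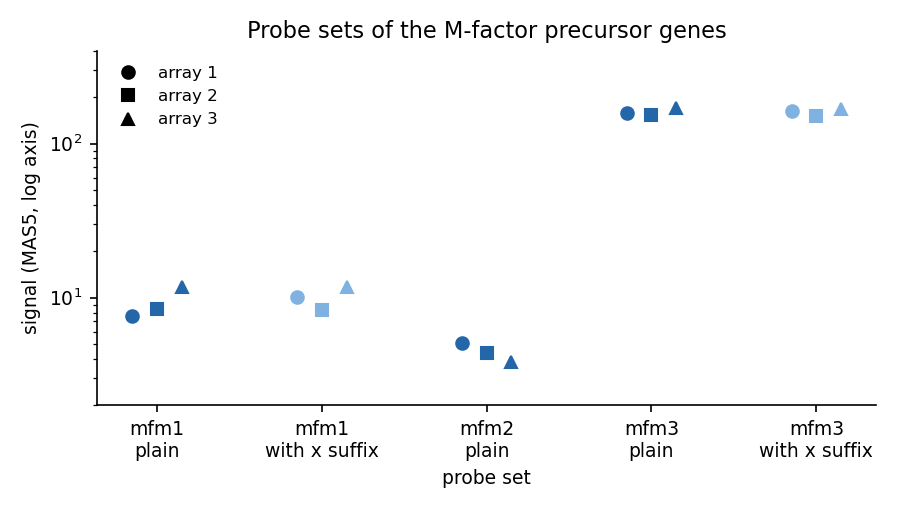
MAS5 signal (vertical log axis) of each probe set of the M-factor precursor genes (horizontal axis) on array 1 (circles), array 2 (squares) and array 3 (triangles). Light blue marks the probe sets with the maker's suffix for possible matches to other sequences. Both probe sets of mfm3 lie between 150.2 and 171, and those of mfm1 and mfm2 lie between 3.83 and 11.8.

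The M-factor maturation and export genes were among the brighter of the 10. The methyltransferase gene mam4, whose product adds the methyl group to the farnesylated end of M-factor, gave 411, 398 and 374, a log2 signal of 8.62 ± 0.07, and 60.8% of genes lay lower. The gene mam1, which encodes the ABC transporter that exports M-factor, gave 255, 270.0 and 249.8, a log2 signal of 8.01 ± 0.06, and 43.3% of genes lay lower. Array 3 was the lowest for both, and their arrays did not overlap with each other. Either was brighter than all 3 genes of the peptide that they act on.

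The agglutinins were close from array to array. The minus-cell agglutinin gene mam3 gave 296 on array 1, 296 on array 2 and 308 on array 3, a log2 signal of 8.23 ± 0.03. This was the smallest SD of the 10 genes, and the signal stood next to that of the median gene, with 50.4% of genes lower. The plus-cell agglutinin gene map4 gave 134, 127 and 137, a log2 signal of 7.05 ± 0.06, and 23.8% of genes lay lower. The agglutinin of the other mating type was therefore the brighter on every array, by 1.18 ± 0.04 on the log2 scale.

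The proteases differed in the opposite direction. The gene sxa1 encodes an aspartic-type protease, and sxa2 encodes the secreted carboxypeptidase with which minus cells degrade P-factor. Signals of sxa1 were 462, 435 and 409, a log2 signal of 8.76 ± 0.09, the highest of the 10, and 65.4% of genes lay lower. Signals of sxa2 were 97.0, 94.7 and 73.6, a log2 signal of 6.46 ± 0.22, and 16.6% of genes lay lower. On every array sxa1 was the brighter, by 2.31 ± 0.15 on the log2 scale.

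**Figure D3:**
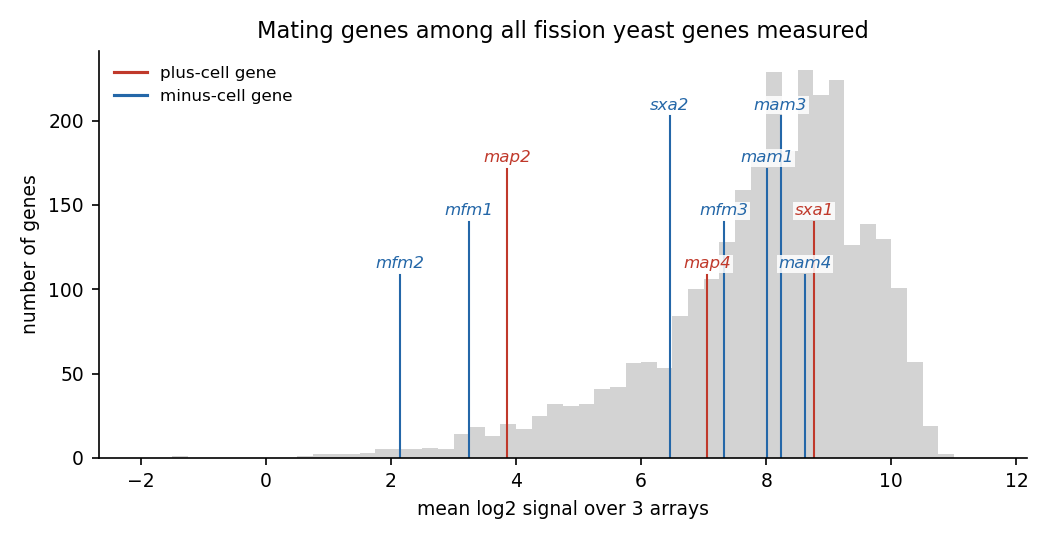
Number of fission yeast genes (vertical axis) by mean log2 signal over the 3 arrays (horizontal axis, grey bars), with the plus-cell genes in red and the minus-cell genes in blue. The height of a coloured line only makes room for its name. The genes mfm2, mfm1 and map2 lie in the low tail of the distribution, while mam3, mam4 and sxa1 lie at or above the median of 8.22.

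Plus-cell genes were not brighter than minus-cell genes in any uniform way. The median over map2, map4 and sxa1 was a log2 signal of 7.05 and that over the 7 minus-cell genes was 7.33. Plus minus minus was -0.27, -0.26 and -0.30 on arrays 1, 2 and 3, with a mean of -0.27 ± 0.02. On every array the plus-cell median was the value of map4 and the minus-cell median that of mfm3. The difference and its ± therefore describe this pair of genes, not the mating types as groups. Its sign changed with the summary used and with the genes included. With means in place of medians, plus minus minus was 0.27 ± 0.03. Kept as a difference of medians, it was 0.20 ± 0.01 with the receptor genes added and -1.44 ± 0.14 without sxa1 and mam4. These 3 versions were chosen after the values were seen. No test was made, since genes are not replicates and their probes differ in brightness. The ranges overlapped, with plus-cell genes from 3.86 to 8.76 and minus-cell genes from 2.14 to 8.62.

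By role, the mating types also went both ways. For the pheromone precursors, map2 lay above mfm1 by 0.61 ± 0.19 and above mfm2 by 1.72 ± 0.26, but below mfm3 by 3.47 ± 0.02 on the log2 scale. The receptor of M-factor, made by plus cells, is encoded by map3, which gave 406, 415 and 407. The receptor of P-factor, made by minus cells, is encoded by mam2, which gave 345, 351 and 331. Plus minus minus for the receptors was 0.26 ± 0.03, the smallest difference of any role. Of the other genes listed to mark the mating type, map1, a plus-cell transcription factor gene, gave 28.2, 31.5 and 26.8. The listed genes of the mating-type locus, mat1-Pc, mat1-Pi, mat1-Mc and mat1-Mi, were looked up but had no match among the 2896 genes.

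In order of mean signal, from lowest to highest, the genes were mfm2, mfm1, map2, sxa2, map4, mfm3, mam1, mam3, mam4 and sxa1. Of the 9 pairs of neighbours in this order, only mam4 and sxa1 had ranges over the arrays that overlapped, with means 0.14 apart on the log2 scale. The other 8 pairs kept apart on these arrays, with gaps from 0.22, between mam1 and mam3, to 2.60, between map2 and sxa2. The order came from the same values, and the share of such pairs among other genes was not computed. The count is therefore a description only and says nothing particular about these genes.

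The arrays agreed less well on mfm1, sxa2 and mfm2 than on the rest. Their SDs were 0.27, 0.22 and 0.20 on the log2 scale, while the other 7 genes had SDs of 0.09 or less. Dim genes vary more on such arrays, so each SD was set beside the median SD of the 200 genes nearest in mean signal. By that measure mfm2 was ordinary, at 0.20 against 0.17, and mfm1 was at 0.27 against 0.17. The value for sxa2 was 0.22 against 0.08, and 9 of its 200 neighbours had an SD as large or larger. Though its SD was small, sxa1 stood as far out among its neighbours as mfm1, at 0.09 against 0.05. An SD as large or larger was found in 44 neighbours of sxa1 and in 45 of mfm1. The plus-cell pheromone gene map2 was steadier than its neighbours, at 0.08 against 0.15, and 160 of them had an SD as large or larger. In all, 6 of the 10 genes had an SD above the median of their neighbours, against 50.9% of all genes, so this count is near the background.

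Array 3 was the highest or the lowest for each of mfm1, sxa2 and mfm2. For sxa2 it was 0.38 below the mean of the other arrays on the log2 scale and for mfm2 0.30 below, while for mfm1 it was 0.46 above. Without array 3, the mean log2 signal was 6.58 for sxa2, 2.24 for mfm2 and 3.10 for mfm1, and their place in the order of the 10 was kept. Of the 10 genes, 5 were highest on array 3, namely map2, map4, mfm1, mfm3 and mam3, and 5 were lowest there, namely sxa1, mfm2, mam1, mam4 and sxa2. Over all genes 39.4% were highest and 34.0% lowest on that array. In the annotation the span of sxa2 overlaps cox4, a cytochrome c oxidase subunit gene, which gave 1046, 1014 and 1063. The overlapping gene did not share the low value of array 3. Its part in the signal of sxa2 was not tested. The spans of map4, mfm3, mam1, mam3 and mam4 also overlap annotated genes, none of which was measured here under its own name.

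**Figure D4:**
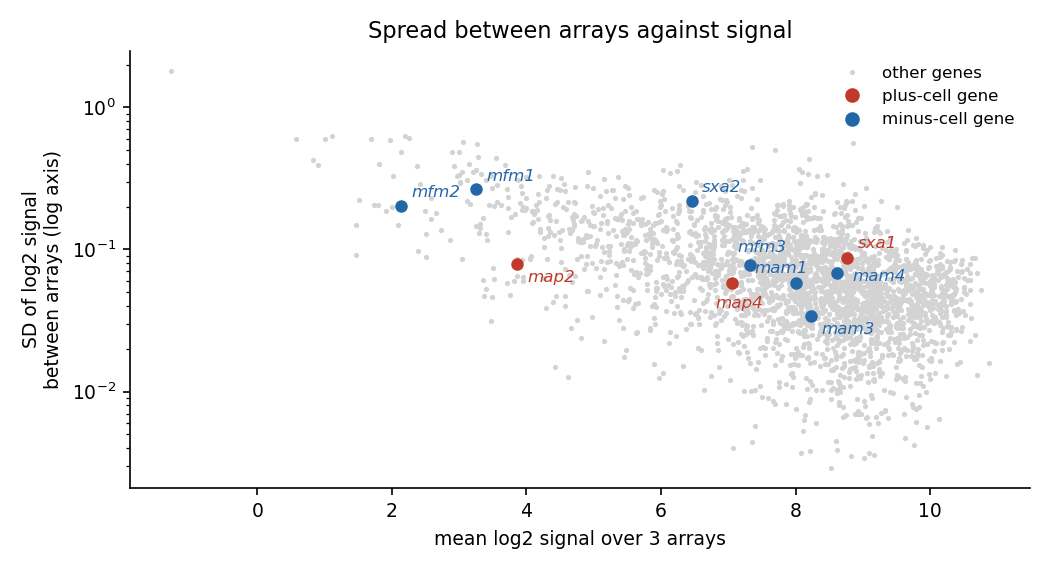
SD of log2 signal between the 3 arrays (vertical log axis) against mean log2 signal (horizontal axis) for all genes (grey), plus-cell genes (red) and minus-cell genes (blue). The gene sxa2 lies near the upper edge of the genes of like signal, with an SD of 0.22, and map2 lies low among its neighbours at 0.08.

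Other genes of the mating pathway were read from lists of the pathway, of which every measured member passed the background test, as 99.9% of all genes did. Of 15 genes of pheromone receptors and signalling, 8 lay in the bottom 25% of signal, and their median was a log2 signal of 7.05. The receptor gene map3 was among the brighter, at 8.68 ± 0.02. The lowest were the p21-activated kinase gene shk1 at 4.81 ± 0.02 and gpa1, which encodes the G-protein alpha subunit coupled to the pheromone receptors, at 5.91 ± 0.15. The pathway that reads the pheromones thus had a median close to that of the genes that make and handle them.

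Of 8 listed enzymes of general pheromone maturation, 6 were measured, and 3 of these lay in the bottom 25% (median 7.03). The highest were cwp1, the alpha subunit shared by protein prenyltransferases, at 9.40 ± 0.02 and the signal peptidase subunit gene spc3 at 9.05 ± 0.27. The lowest were the signal peptidase subunit genes spc2 at 4.33 ± 0.14 and sec11 at 6.59 ± 0.11. Outside the rule for naming, krp1, the kexin-type protease gene whose product cuts the P-factor precursor, gave 6.76 ± 0.07, and cpp1, the farnesyltransferase beta subunit gene, gave 7.29 ± 0.08.

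Of 7 measured transcription regulators of mating, 4 lay in the bottom 25% (median 6.63). The response regulator gene prr1 gave 9.07 ± 0.11 and the stress transcription factor gene atf1 gave 7.39 ± 0.10. The lowest were map1 at 4.85 ± 0.12 and pcr1, the partner of atf1, at 5.93 ± 0.05. Outside the rule for naming, ste11, the main activator of mating genes, gave signals of 97.4, 77.0 and 86.0, a log2 signal of 6.43 ± 0.17, and 16.3% of genes lay lower.

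Of 8 genes of cell pairing and fusion, 3 lay in the bottom 25% (median 7.38). The membrane fusion gene prm1 gave 8.87 ± 0.06 and the type V myosin gene myo52 gave 8.12 ± 0.06, while dni1, a cell fusion gene, gave 5.43 ± 0.16 and the fusion formin gene fus1 gave 6.14 ± 0.04. The lists of mating functions, which also hold genes of general or stress functions, had medians from 6.63 to 7.38. The median of the 10 genes, 7.19, lay within this span.

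The lists of other ABC transporters and of other secreted or vacuolar proteases had higher medians. Of 10 other ABC transporter genes, 2 lay in the bottom 25% (median 8.50), with abc4 at 9.54 ± 0.05 and abc1 at 9.15 ± 0.07 highest, and abc2 at 5.66 ± 0.16 and the leptomycin efflux gene pmd1 at 6.67 ± 0.10 lowest. Of 4 other secreted or vacuolar protease genes, 0 lay there (median 8.79), from carboxypeptidase Y, cpy1, at 10.11 ± 0.04 and psp3 at 8.99 ± 0.03 to yps1 at 8.60 ± 0.07 and isp6 at 8.25 ± 0.03. Of 9 other cell-surface adhesin genes only pfl8 was measured, at 7.52 ± 0.06, matched through its gene identifier.

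**Figure D5:**
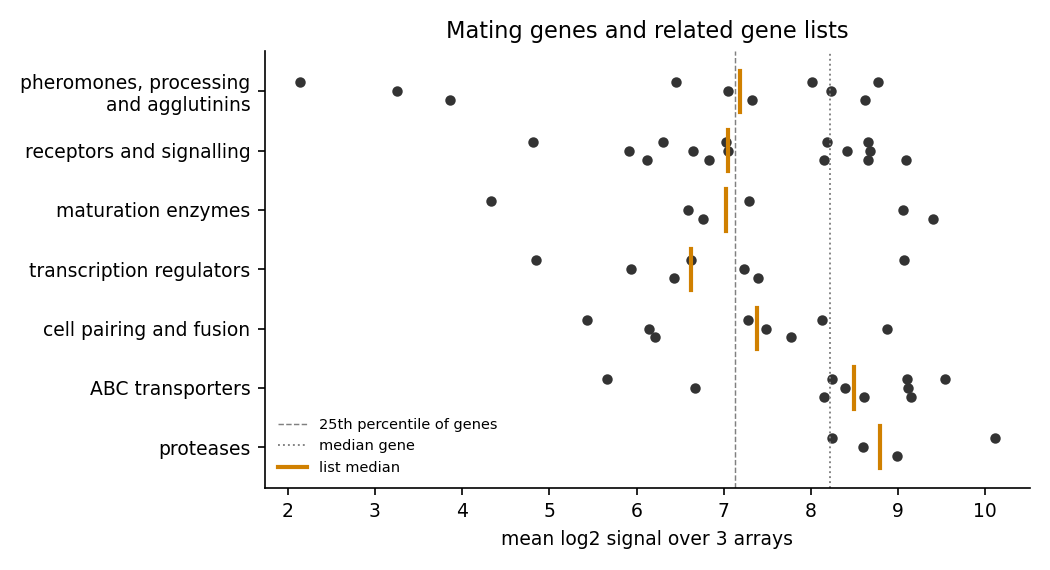
Mean log2 signal over the 3 arrays (horizontal axis) of each measured gene (points) in the 10 pheromone, processing and agglutinin genes and in the related lists (vertical axis). Orange bars are list medians, the dashed line is the 25th percentile and the dotted line the median of all genes. The points of the top list reach lower than those of any other list, with mfm2, mfm1 and map2 under the lowest other gene, spc2 at 4.33.

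The arrays also carry probe sets named for mating genes of budding yeast, in which pheromones work by a similar scheme. Of 18 such names looked up, outside the rule for naming, 6 had a probe set. These were STE6, the exporter of the lipid-modified pheromone, the receptor gene STE3, the pheromone-degrading protease gene BAR1, the pheromone-processing protease genes KEX1 and STE13, and the agglutinin gene AGA1. Their signals ran from 0.0198 to 0.833, and 0 of the 6 reached the background limit on any array. The limit was set on such probe sets, and 89% of all 2601 lay under it on every array, so this count is near the background. The 10 fission yeast genes lay over the limit on every array, so that each was brighter than these 6 follows from it and is no separate result.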

How the data were processed

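Total RNA of 3 wild type samples in 1 group was hybridised to 1 array each. The authors deposited a linear signal intensity for each probe set, made with MAS5, per the series' design text and the submitters' processing notes. No scaling target is stated, but the trimmed mean was 150.04 on every array, so intensities were used as deposited and turned into log2. Of 10928 probe sets, 2914 matched a gene of assembly ASM294v3 by gene identifier (2896 genes, probe sets averaged on the log2 scale), and 2601 with capitalised symbols and identifiers outside that table were taken as another yeast's, since no table stated their organism. No gene was named for 5224 other probe sets, which were left out of the shares and percentiles. The 12 probe sets of the 10 genes each had 1 gene named.

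Log2 signal minus the background limit was tested against 0 with limma 3.58.1 in R 4.3.3 (two-sided, Benjamini-Hochberg over all genes), after the procedure was tested on simulated data. Dim genes vary more than limma assumes, so their p-values can be too small. Named were the 10 genes, map3 and mam2, genes overlapping a member, and the 2 highest and 2 lowest of each list. The result of 1 gene under this rule is not reported here. The genes and lists were chosen with earlier results of these data known. Alternatives were a pseudocount, median centring, quantile normalization, other limits, other handling of probe sets and leaving out each array. Depth is not defined for arrays, and their number limits the precision.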

Additional observations from a re-analysis of the deposited data

How the results depend on the processing

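The count of 10 genes above background and the count of 5 in the bottom 25% were the same under every alternative run for them. The number of genes whose SD exceeded the median of their neighbours ranged from 5 to 8 when arrays were left out. Plus minus minus of the median log2 signal was -0.25 with a pseudocount of 16 and ranged from -0.28 to -0.26 when arrays were left out. Under alternatives added after seeing the data it was 0.27 with means over the same genes in place of medians, of the opposite sign. Kept as medians, it was 0.20 with the receptor genes added, also of the opposite sign, and -1.44 without sxa1 and mam4. With the pseudocount, 8 of the 10 single-gene values moved by over 1 SD, as adding 16 raises every value, and under the other settings 0 did. No paired analysis was possible because there was only 1 group. With only 3 arrays, differences near the SD of a gene cannot be seen.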
